A study of Drosophila melanogaster with 2 samples.

Results

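The segment polarity genes examined were en, inv, wg, hh, ptc, ci, gsb and nkd, taken by name as 8 of the 13968 protein-coding genes annotated on the assembled chromosomes. For each gene, every region of the deposited lists with a summit inside the gene or within 10 kb of it was collected. The lists came from ChIP-seq of CG6813, a zinc finger protein of the ZAD (zinc finger-associated domain) family, in whole Drosophila melanogaster embryos of both sexes collected 0 to 24 h after laying. All embryos came from a transgenic line that stably carries CG6813 with GFP at its C-terminus, and the protein was precipitated through the GFP tag. There was 1 group with 2 biological replicates, numbered 2 and 3 in the labels, and no control library was used here. Whole embryos over this span mix all stages and cell types, so a region cannot be assigned to the cells that express a segment polarity gene. The thresholded list held 5012 peaks, which were the 5012 strongest of the 30000 regions pooled from both replicates. Signal is the value the authors deposited for each region, without replicate error in the pooled list, and rank 1 is the strongest region of a list. The depth of the libraries is unknown, so the error of a single signal value could not be given.

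Segment polarity genes pattern every segment of the fly embryo. Cells at the posterior of each segmental unit express the paralogous homeodomain proteins Engrailed and Invected and secrete Hedgehog. Hedgehog binds its receptor Patched on neighbouring cells, which frees Smoothened to signal and turns the zinc finger protein Cubitus interruptus (Ci) into an activator of ptc and wg. The secreted Wnt protein Wingless in turn maintains en, the paired-domain protein Gooseberry maintains wg, and Naked cuticle (Nkd) is a Wingless-induced antagonist that binds Dishevelled.

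Thresholded CG6813 peaks lay at 3 of the 8 genes, with several at each. The receptor gene ptc and the antagonist gene nkd had 8 peaks each and hh had 3, while en, inv, wg, ci and gsb had none. Of all protein-coding genes, 59.1% had a thresholded summit by the same rule, and the 37.5% of the segment polarity genes lies below that share. That order held within 5 kb (3 of 8 genes against 44.1%) but turned in other windows. Inside the gene only, 3 of 8 stood against 13.0%, and within 20 kb, 7 of 8 against 76.1%. A peak at a promoter, within 500 bp of a transcription start site (TSS), was present at ptc and nkd, 25% of the 8 genes, against 14.8% of protein-coding genes. Of protein-coding genes, 0.823% had 8 or more peaks. The median gene had 1, and the most was 19 at CG1677. The genes differ in length: nkd spans 41.7 kb, ptc 15.6 kb and inv, with no peak, 35.2 kb, against a median of 2.16 kb for protein-coding genes. The part of gene length in the number of peaks was not tested.

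The gene hh (FBgn0004644) lies at 23128169 to 23141906 on the minus strand of 3R (dm6) and encodes the Hedgehog ligand. Its 3 peaks all stood in introns, none at the promoter. The peak with the highest signal, 232 in the pooled list (rank 2412), had its summit at 23134901, 7005 bp downstream of the annotated 5′ end of hh. There the signal was 156 in replicate 2 (rank 2509) and 70.9 in replicate 3 (rank 3031). Deeper in the gene, at 23133736, the pooled signal was 203 (rank 3012), with 128 in replicate 2 and 71.3 in replicate 3. The TSS nearest the summits at 23134901 and 23133736 was that of CG31457, 6920 and 5755 bp away. The summit nearest the 5′ end, at 23139787, lay 2119 bp downstream of it and was the weakest, with a pooled signal of 168 (rank 4042). It had 131 in replicate 2 (rank 3288) and 40.2 in replicate 3 (rank 8811), so replicate 3 did not place it among its 5012 strongest regions. The other summits were within the 5012 strongest of both replicates.

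The windows of 100 bp on each side of the hh summits are printed because they are the sequence under every Hedgehog ligand gene peak. They are given 5′ to 3′ on the plus strand, from the RefSeq copy of the dm6 assembly. Capitals mark GAGAG, read by GAGA factor and CLAMP, and GCCAT, the core of the Pho site, on either strand. The window at 23134901 holds 1 match to each, that at 23133736 holds GCCAT alone, and the one nearest the 5′ end holds neither.
hh summit 23133736, chr3R:23133636-23133836: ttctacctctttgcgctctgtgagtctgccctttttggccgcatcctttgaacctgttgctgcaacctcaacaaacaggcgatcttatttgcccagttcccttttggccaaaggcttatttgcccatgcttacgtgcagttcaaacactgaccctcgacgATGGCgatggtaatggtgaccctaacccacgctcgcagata
hh summit 23134901, chr3R:23134801-23135001: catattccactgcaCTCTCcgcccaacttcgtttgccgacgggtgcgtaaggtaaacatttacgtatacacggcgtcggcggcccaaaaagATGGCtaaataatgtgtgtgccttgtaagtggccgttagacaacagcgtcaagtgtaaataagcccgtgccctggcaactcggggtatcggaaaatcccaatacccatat
hh summit 23139787, chr3R:23139687-23139887: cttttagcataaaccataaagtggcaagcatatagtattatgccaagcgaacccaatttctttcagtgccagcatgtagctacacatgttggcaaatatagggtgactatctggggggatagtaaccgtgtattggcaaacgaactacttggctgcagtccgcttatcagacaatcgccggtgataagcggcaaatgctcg

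The other ligand gene, wg (FBgn0284084, 2L, 7307159 to 7316265, plus strand), had no thresholded peak and 14 weaker pooled regions. Its strongest pooled region had its summit at 7298982, 8177 bp upstream of the TSS, with a signal of 117 (rank 6984). The replicates gave 70.3 (replicate 2) and 37.3 (replicate 3) there. The next, 5432 bp upstream, had a pooled signal of 103 (rank 8358), with 73.5 in replicate 2 and 34.4 in replicate 3. At the wg promoter, 208 bp upstream of the TSS, a pooled region had a signal of 66.9, under the median of 71.4 for the pooled list. It was listed in both replicates, at 39.0 in replicate 2 and 31.6 in replicate 3. All of these lay below the weakest thresholded peak, whose signal was 145.7. The nearest thresholded summit, at 7296075 with a signal of 333 (rank 1358), was intergenic and 11.1 kb upstream of wg, just beyond the 10 kb limit.

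The receptor gene ptc (FBgn0003892, 2R, 8649649 to 8665223, plus strand) carried the strongest peak of all 8 genes. That peak, with a summit at 8654408 in an intron 4759 bp downstream of the 5′ end, had a pooled signal of 583 (rank 463), with 365 in replicate 2 (rank 602) and 222 in replicate 3 (rank 281). An intergenic peak 5252 bp upstream of ptc reached 442 (rank 812), with 327 in replicate 2 and 114 in replicate 3. The promoter peak lay 80 bp upstream of the TSS, at 8649569, with a pooled signal of 282 (rank 1795), 169.9 in replicate 2 and 112 in replicate 3. A further intronic peak, 2823 bp downstream of the 5′ end, had a signal of 208, with 135 in replicate 2 and 60.1 in replicate 3. The TSS nearest the strongest peak and this one was that of lncRNA:CR44281, 2912 and 976 bp away.

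The other 4 peaks counted for ptc stood past its 3′ end, inside an intron of the neighbouring gene Acsl, which encodes a long-chain acyl-CoA synthetase. Their pooled signals, in order along the arm, were 202, 267, 350.1 and 172. In replicate 2 they were 145, 158, 262 and 129, and in replicate 3 they were 57.6, 99.4, 99.9 and 44.5, so the third was the highest in each list. The last pair had summits 200 bp apart in overlapping regions, so they may not be separate sites. Within 5 kb of ptc in place of 10 kb, 7 of its 8 peaks remained, these 4 among them. Only the intergenic peak 5252 bp upstream of ptc was left out.

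**Figure D1:**
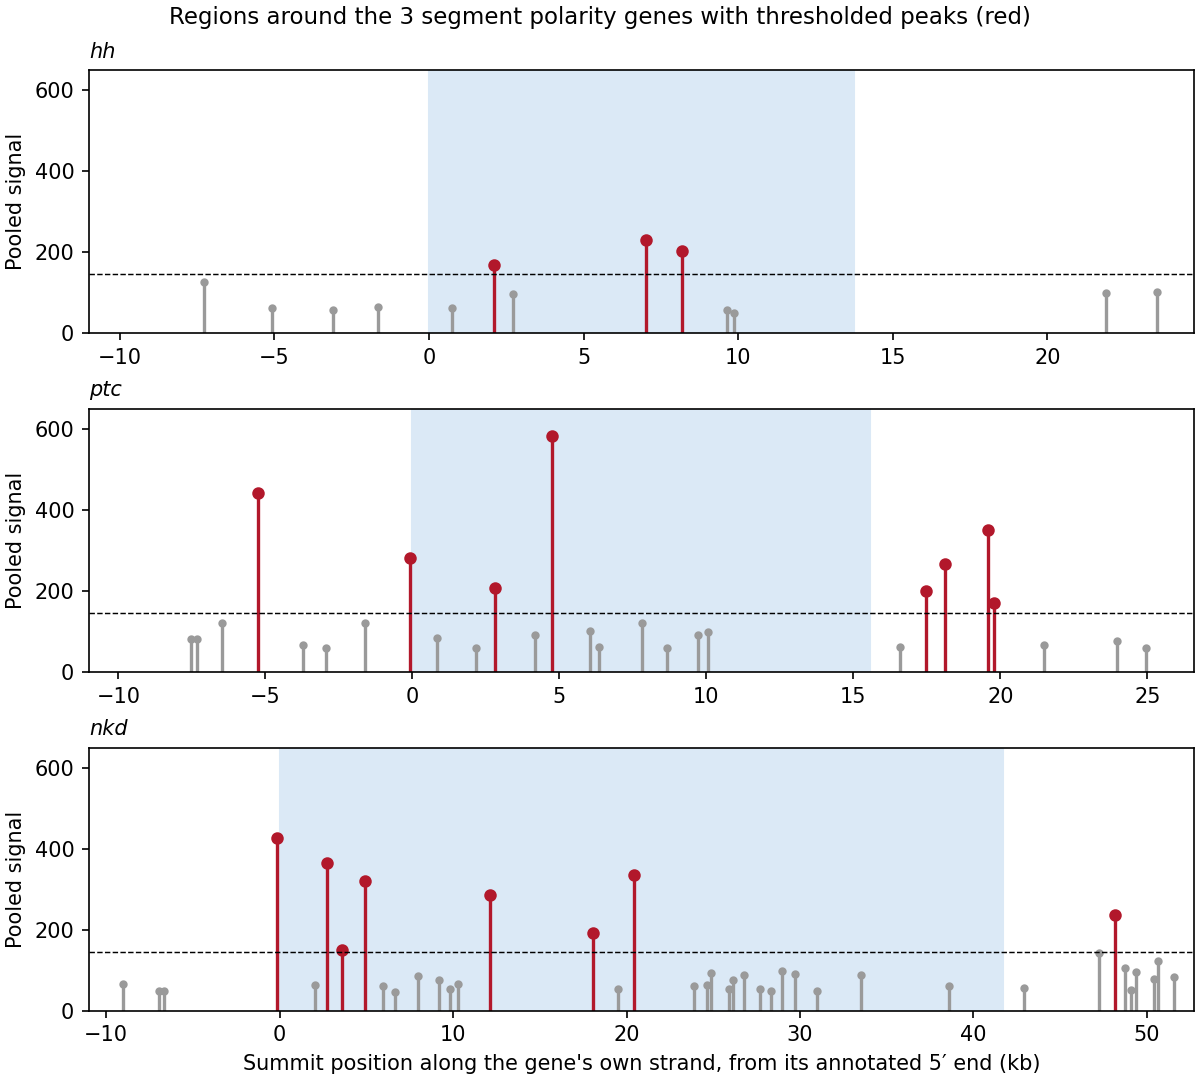
Every pooled region (grey) and thresholded peak (red) within 10 kb of hh, ptc and nkd, plotted as the pooled signal against the summit's distance in kb from the gene's annotated 5′ end along its own strand. Shading marks the gene and the dashed line the weakest thresholded signal, 145.7. The peaks of ptc and nkd stand near both ends and inside the genes, and the highest is the ptc intronic peak at 583.

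The antagonist gene nkd (FBgn0002945, 3L, 19003741 to 19045449, minus strand) had 8 peaks among 40 pooled regions, the most pooled regions of the 8 genes. Its strongest peak was at the promoter, with a summit at 19045586, 137 bp upstream of the annotated 5′ end. There the pooled signal was 428 (rank 863), with 315 in replicate 2 (rank 794) and 117 in replicate 3 (rank 1128). Of the peaks of all 8 genes, only those in the ptc intron and upstream of ptc had a higher pooled signal. In introns, 3 peaks followed at 2717, 3569 and 4930 bp from the 5′ end, with pooled signals of 364, 151 and 322 and replicate 2 signals of 243, 121 and 179. The middle one, at 19041880, was the weakest of the 19 peaks (150.7, rank 4754) and the one on which the replicates differed most. Its signal was 121 in replicate 2 (rank 3674) and 28.5 in replicate 3 (rank 17077). The peaks on both sides of it ranked 985 (125) and 908 (129.8) in replicate 3.

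Deeper in nkd, 3 peaks had summits 12.1, 18.1 and 20.4 kb from the 5′ end. The first of these, at 19033344, fell in an exon of lncRNA:CR45940, a noncoding gene inside an nkd intron, with a pooled signal of 286 (rank 1762), 186 in replicate 2 and 97.6 in replicate 3. The others were intronic, with pooled signals of 193 and 335, of 146 and 274 in replicate 2, and of 45.8 and 80.3 in replicate 3. The last peak, at 18997263 with a signal of 237, lay past the 3′ end of nkd in an intron of CG18135, and it ranked 2689 in replicate 2 and 1510 in replicate 3. The region of the nkd window just under the threshold had a signal of 143.6 and rank 5116. Its summit, at 18998198, also lay past the 3′ end of nkd, 85 bp from a TSS of CG18135.

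The windows of the nkd promoter peak and of its strongest intronic peak are shown because they hold the highest signals at this gene. Capitals again mark GAGAG or its complement CTCTC. The promoter window, plus strand of dm6, has 1 match, and the intronic window has no match to any of the 6 motifs searched.
nkd promoter, chr3L:19045486-19045686: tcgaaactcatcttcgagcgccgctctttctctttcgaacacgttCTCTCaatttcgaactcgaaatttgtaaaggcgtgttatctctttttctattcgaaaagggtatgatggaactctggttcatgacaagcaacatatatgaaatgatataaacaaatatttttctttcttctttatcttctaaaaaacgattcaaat
nkd intron, chr3L:19042632-19042832: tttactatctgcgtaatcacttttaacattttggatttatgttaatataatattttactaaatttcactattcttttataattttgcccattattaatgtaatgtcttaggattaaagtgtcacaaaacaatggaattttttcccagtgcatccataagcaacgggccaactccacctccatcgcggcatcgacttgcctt

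The gene ci (FBgn0004859, chromosome 4, 47710 to 57041, minus strand), which encodes the transcription factor at the end of the Hedgehog pathway, had no thresholded peak and 4 weak pooled regions of 52.3 to 61.2. Its replicate lists held a region that the pooled list did not. In replicate 2, a region with a summit at 56504 had a signal of 121 and rank 3660, inside the 5012 strongest of that list. In replicate 3, a region with a summit at 56423, 81 bp away, had a signal of 39.4 and rank 9153. The nearest pooled summit, at 51191, was 5313 bp from the replicate 2 summit. The replicate 2 summit lay 7 bp downstream of the start of the antisense gene asRNA:CR43957 and 173 bp upstream of the nearest ci TSS. A weaker replicate 2 region inside ci, at 55042 with a signal of 35.8 (rank 22827), also had no pooled summit within 200 bp. Of the 5012 strongest regions of replicate 2, 21 (0.419%) had no pooled region within 200 bp, and 7 of these 21 had a replicate 3 region there. Among the 5012 strongest of replicate 3, the number was 131 (2.61%). Chromosome 4 held 83 pooled regions, against 107 in replicate 2 and 105 in replicate 3. What left the ci region out of the pooled list was not tested.

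The ci window is shown because it is the strongest region near ci in either replicate list and has no pooled counterpart. It is centred on the replicate 2 summit, plus strand of dm6, and capitals mark its 1 match to GCCAT or its complement.
ci replicate 2 region, chr4:56404-56604: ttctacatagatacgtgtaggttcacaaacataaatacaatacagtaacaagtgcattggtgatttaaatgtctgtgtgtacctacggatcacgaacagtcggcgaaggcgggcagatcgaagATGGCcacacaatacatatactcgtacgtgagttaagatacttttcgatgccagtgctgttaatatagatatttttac

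Around ci, the nearest thresholded summit stood at 67211, 10.2 kb beyond the gene and 4 bp upstream of RpS3A, which encodes a ribosomal protein. It had a signal of 563 (rank 501) and also lay within 10 kb of pan, the gene of the Wingless pathway transcription factor Pangolin. The pooled region with the highest signal near ci, 61.2 at 44056, was close to the TSS of PlexB and ranked 19310.

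The homeodomain genes en and inv, neighbours on 2R, had no thresholded peak. For en (FBgn0000577, 11524006 to 11528210, minus strand), the strongest of 8 pooled regions had its summit at 11520426, 7457 bp downstream of the nearest TSS. Its signal was 125 (rank 6253), with 63.9 in replicate 2 (rank 9215) and 60.3 in replicate 3 (rank 4102). Replicate 3 thus placed it inside its 5012 strongest regions and replicate 2 did not. None of the 8 pooled summits lay inside en itself. For inv (FBgn0001269, 11474465 to 11509695, plus strand), the strongest of 16 pooled regions had its summit at 11469667, 4798 bp upstream of the nearest TSS, with a signal of 124 (rank 6380), 81.4 in replicate 2 and 39.0 in replicate 3. An inv promoter region was listed in the pooled list at 59.9. Replicate 3 had 44.4 there (rank 7273), and replicate 2 had no region within 200 bp. The 10 kb windows of the pair overlap and share 2 pooled regions. The nearest thresholded summit to both, at 11541263 with a signal of 222 (rank 2599), was intergenic, 13.1 kb upstream of en and 31.6 kb from inv.

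The remaining gene, gsb (FBgn0001148, 2R, 25061964 to 25064643, plus strand), had 4 pooled regions, all under the median of the pooled list and none inside the gene. The highest, with a signal of 61.8 (rank 18995) at 25073639, lay in an intron of gol, with 37.9 in replicate 2 and 23.9 in replicate 3. Another, with a signal of 50.3, stood 8 bp from the TSS of gsb-n, the neighbouring paralogue, and its replicate 3 counterpart had 44.3 and rank 7310. The nearest thresholded summit, at 25076937 with a signal of 154 (rank 4605), was 12.3 kb away near a tRNA gene start.

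**Figure D2:**
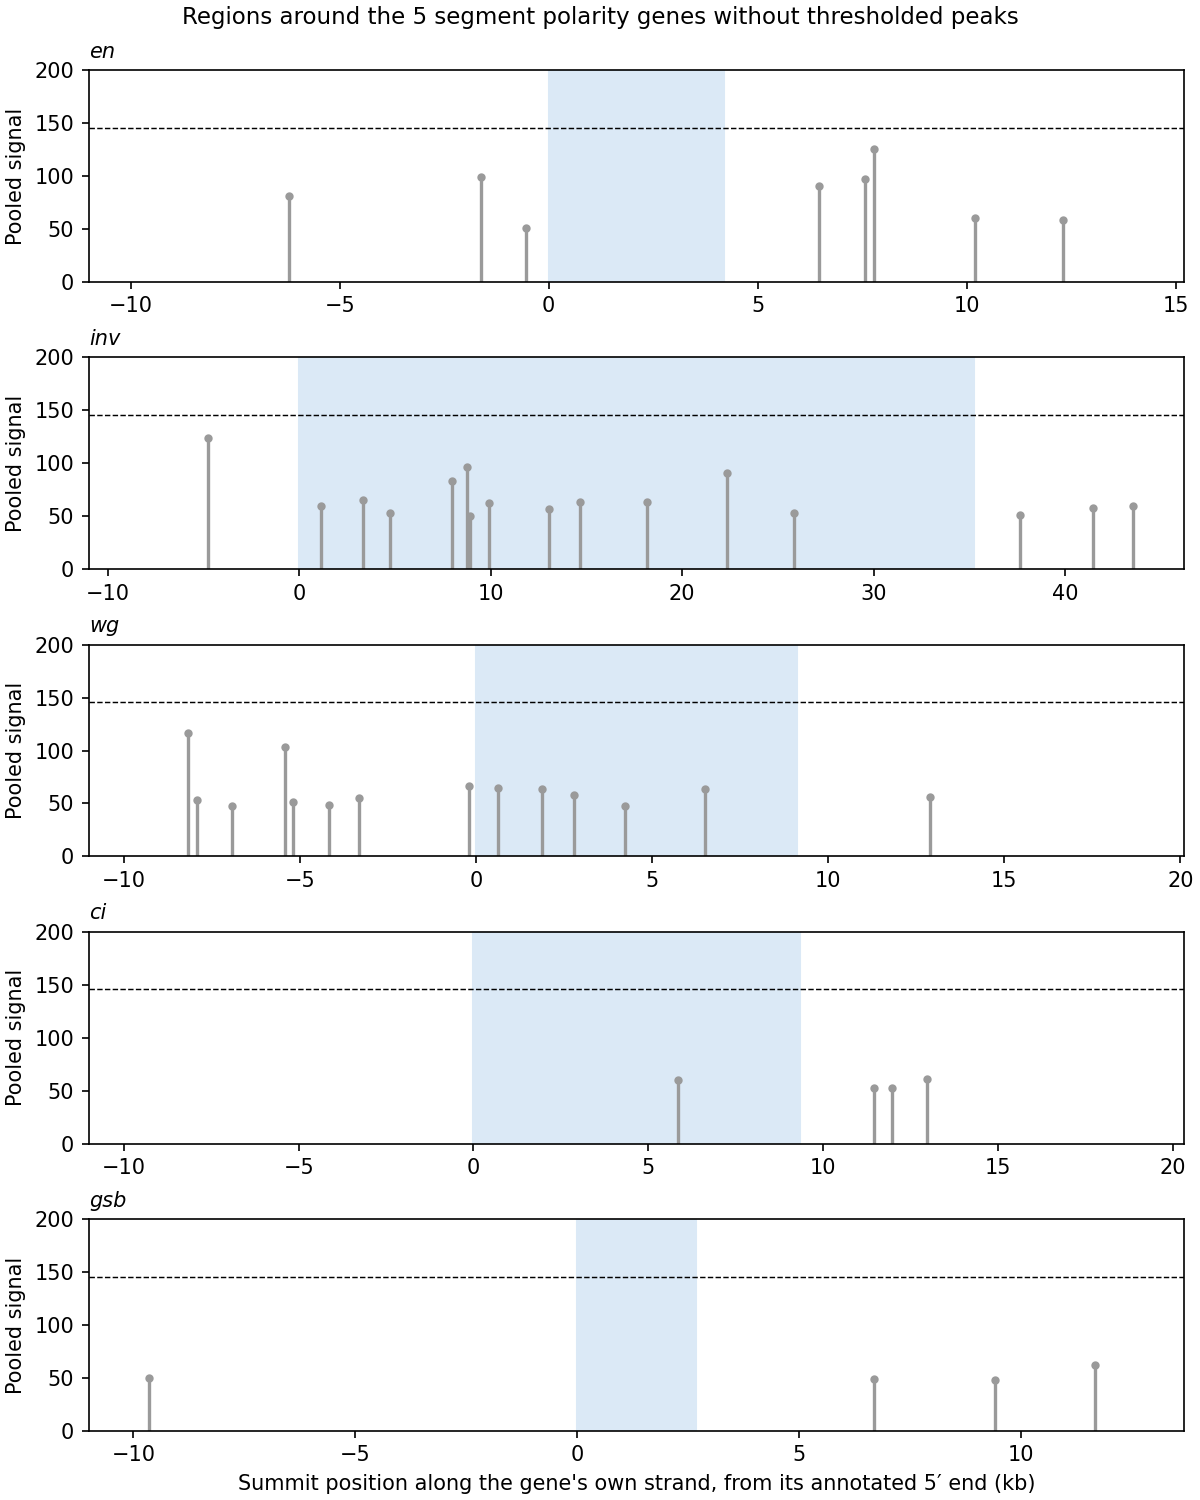
Every pooled region within 10 kb of en, inv, wg, ci and gsb, as pooled signal against the summit's distance in kb from the gene's annotated 5′ end along its own strand, with the gene shaded. No region reaches the dashed line at the weakest thresholded signal, 145.7, and the highest, near en, inv and wg, stand at 125, 124 and 117.

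Weaker regions were found near every one of the 8 genes. In the pooled list, 8 of 8 genes had a region within 10 kb, against 94.2% of protein-coding genes. The windows of the 8 genes together held 124 pooled regions, of which 19 (15.3%) were thresholded, against 16.7% of all pooled regions. The share was 29.6% at ptc, 23.1% at hh and 20% at nkd. The 3 genes with peaks held 80 pooled regions. The 5 without peaks held 44, by definition with no thresholded region among them.

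Set per length, the windows around the 8 genes held 6.65 thresholded peaks per 100 kb, against 3.74 over all arms. This density came from 3 genes, with 22.5 per 100 kb at ptc, 13.0 at nkd and 8.89 at hh. Pooled regions numbered 75.9 per 100 kb at ptc, 64.8 at nkd, 48.1 at wg, 38.5 at hh, 33.1 at en and 29.0 at inv, against 22.4 over all arms. They numbered 17.6 at gsb and 13.6 at ci, below that value. In replicate 2, ptc and nkd were again the densest, with 67.5 and 61.6 per 100 kb, and gsb the sparsest, with 13.2. In replicate 3, ptc had 78.7 and nkd 76.2, and ci had 3.41, from its single region there. The order of hh, wg and en between these ends differed between the replicates, with 23.7, 44.7 and 45.4 in replicate 2 and 41.5, 41.2 and 24.8 in replicate 3.

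**Figure D3:**
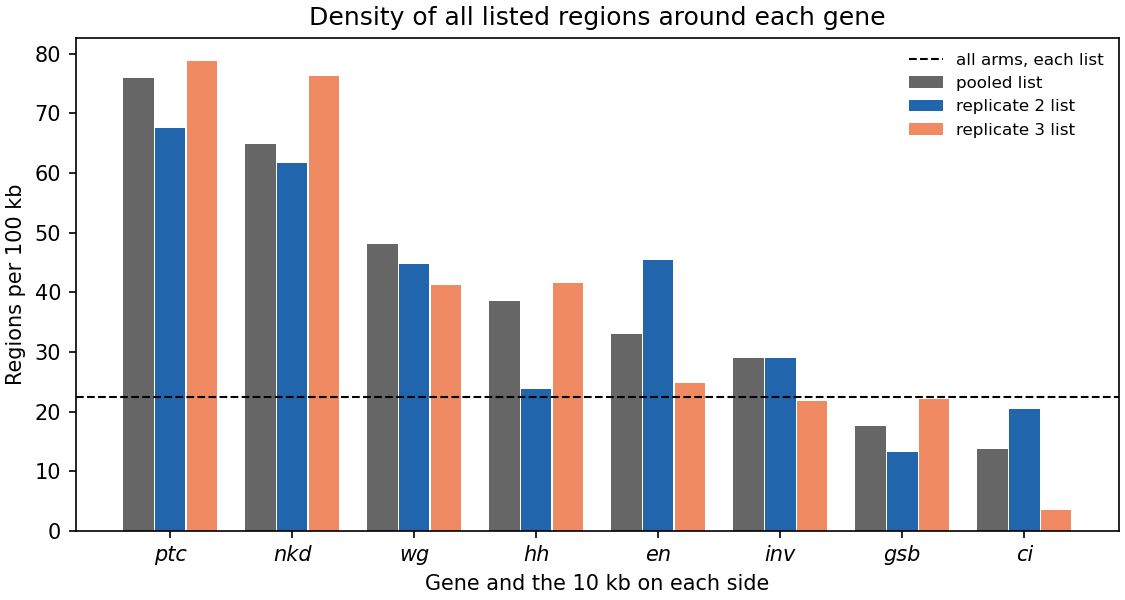
Regions per 100 kb in each gene and the 10 kb on each side, with a bar per gene for the pooled list and for each replicate list, and the dashed line giving the value over all arms (22.4 in each list). Bars of ptc and nkd stand at 61.6 or higher in every list, and those of gsb lie at or below the line.

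By position, 11 of the 19 peaks lay inside ptc, hh or nkd, 10 of them in introns and 1 in the lncRNA exon. A further 5 lay in introns of the neighbours Acsl and CG18135, and 3 lay upstream of ptc or nkd, 2 of them at promoters. In all, 15 summits were intronic and none stood in a coding exon. Shares over all thresholded peaks are not given for these places, so a preference for any of them cannot be judged from the counts. The median pooled signal of the 19 peaks was 267, against 226 for all thresholded peaks.

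All 19 peaks had a region within 200 bp in both replicates. The thresholded list was made from these same replicates, so this overlap is not independent support. All 19 were among the 5012 strongest regions of replicate 2, at 121 to 365, and 15 were among those of replicate 3, where the 19 ranged from 28.5 to 222. Of all thresholded peaks, 70.9% were among the strongest of both replicates, against 15 of these 19. The 4 peaks outside the strongest of replicate 3 were 1 at hh (2119 bp from its 5′ end), 1 in Acsl and 2 in nkd introns, with pooled signals of 151 to 193. The ratio of the replicate 2 signal to the replicate 3 signal had a median of 2.24, with a range of 1.38 to 4.25, against a median of 2.19 for all peaks (interquartile range 1.72 to 2.78). The lowest ratio was at the nkd intronic peak 4930 bp from the 5′ end and the highest at its neighbour 3569 bp from it. The lists differ in scale, so the ratio describes the deposited values only.

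**Figure D4:**
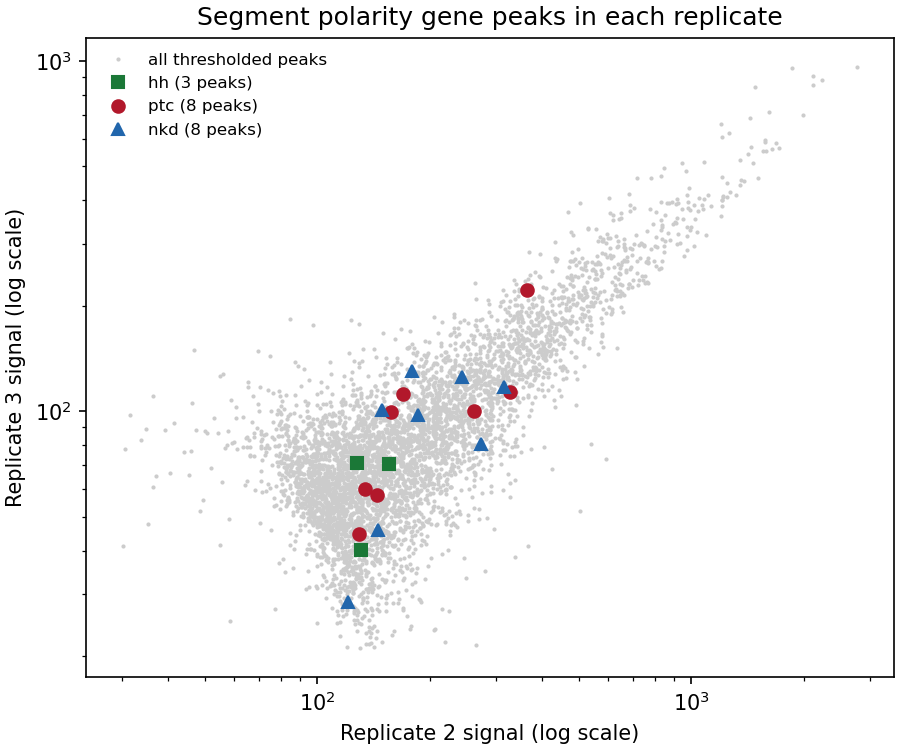
Signal of each of the 19 peaks in replicate 2 (horizontal, log scale) and replicate 3 (vertical, log scale), coloured by gene, over all thresholded peaks in grey. The peaks lie within the grey cloud, from 121 to 365 in replicate 2 and 28.5 to 222 in replicate 3.

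Short sequence motifs were counted on both strands in the 201 bp around each summit. GAGAG stood in 8 of the 19 windows, against 27.7% of all thresholded windows, and GCCAT, the core of the Pho site, in 4, against 27.3%. Matches of GAGAG that overlap each other were counted separately, and the ptc promoter window held 7 and the Acsl window at 8667749 held 6. The palindrome TAATTA, read by homeodomain proteins such as Engrailed, stood in 2 windows, against 14.7%. The Pangolin sequence CTTTGAT stood in 1, that of the strongest ptc peak, against 2.69%. Neither the Ci sequence TGGGTGGTC nor the palindrome TATCGATA, read by Dref, was found, and all windows held them in 0.0399 and 1.70% of cases. These are matches of letters, not tested sites. The median GC content was 37.3% in the 19 windows and the same in all windows. The ptc promoter window, at 58.7%, and the nkd lncRNA window, at 25.4%, were the highest and lowest of the 19 and fell outside the range of 26.4 to 52.2% that held all windows but the 5% at each end.

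Other genes of the Hedgehog and Wingless pathways were set beside the segment polarity genes by the same rule. A thresholded summit within 10 kb was found at 15 of 19 other Hedgehog pathway genes (78.9%) and 22 of 26 other Wingless pathway genes (84.6%); it was found at 3 of 8 segment polarity genes and 59.1% of protein-coding genes. At promoters the counts were 4 of 19 (21.1%) and 7 of 26 (26.9%), against 2 of 8 segment polarity genes and 14.8% of protein-coding genes. Densities per 100 kb were 6.73 and 7.06, against 6.65 around the segment polarity genes. A summit within 10 kb of a gene can lie at another gene. The strongest near smo, slmb and pygo had their nearest TSS at CG17075, Rab11 and CG1635. Those near boi and Notum lay in introns of boi and Notum themselves. Differences between these lists were not tested.

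Among Hedgehog pathway genes, the strongest promoter peak was that of rdx, which encodes an adaptor for the degradation of Ci, with a pooled signal of 514 (rank 621), 371 in replicate 2 and 146 in replicate 3. The promoters of the heparan sulphate proteoglycan genes dlp and dally had 235 and 189, and that of sotv, which encodes a heparan sulphate polymerase, had 206. No thresholded summit lay near Su(fu), disp, cos or fu, which encode a Ci inhibitor, the Hedgehog release factor Dispatched and the kinesin-like and kinase partners of Ci.

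Among Wingless pathway genes, gish, which encodes a casein kinase, had a promoter peak of 1481 (rank 42), with 1082 in replicate 2 and 405 in replicate 3. The promoters of sgg, which encodes the kinase GSK3, and of the corepressor gene gro had 860.4 and 705. That of wls, which encodes the Wnt secretion factor Wntless, had 299, at a summit nearer to the TSS of Adck5, 52 bp away. Promoters of the coreceptor gene arr, of Apc and of the receptor gene fz2 had 281, 268 and 198. No thresholded summit lay near arm, which encodes β-catenin, or near lgs, wntD and Wnt2. The Wnt genes Wnt4, Wnt6 and Wnt10, neighbours of wg on the same arm, each had 1 peak within 10 kb, with signals of 178, 320.2 and 165, while wg had none. The peaks of Wnt4 and Wnt6 lay in their own introns, that of Wnt10 in an intron of CG5149, 1194 bp from its TSS. The thresholded summit nearest wg, with a signal of 333, stood 11.1 kb upstream, just beyond the limit.

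The genes that act before or beside the segment polarity genes varied in the same measure. Of the other segment patterning genes, 6 of 6 had a peak within 10 kb and 0 of 6 at a promoter, with the strongest, 915, standing 4335 bp upstream of slp2 and shared with slp1. Pair-rule genes had a peak within 10 kb in 4 of 9 cases (44.4%), 1 of them, hry (hairy), at the promoter with a signal of 291. No peak lay near ftz, opa, eve, run or odd. Of 12 maternal and gap genes 7 had a peak within 10 kb (58.3%) and 4 at a promoter, the strongest of which was that of cad, 275, followed by bcd, 178, hb, 169, and nanos, 155. The nanos summit was nearer to the TSS of CG11779, 44 bp away. None lay near the gap genes Kr, kni, gt or hkb, or near ems. The genes slp1 and slp2 are counted in the other segment patterning and pair-rule lists alike.

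**Figure D5:**
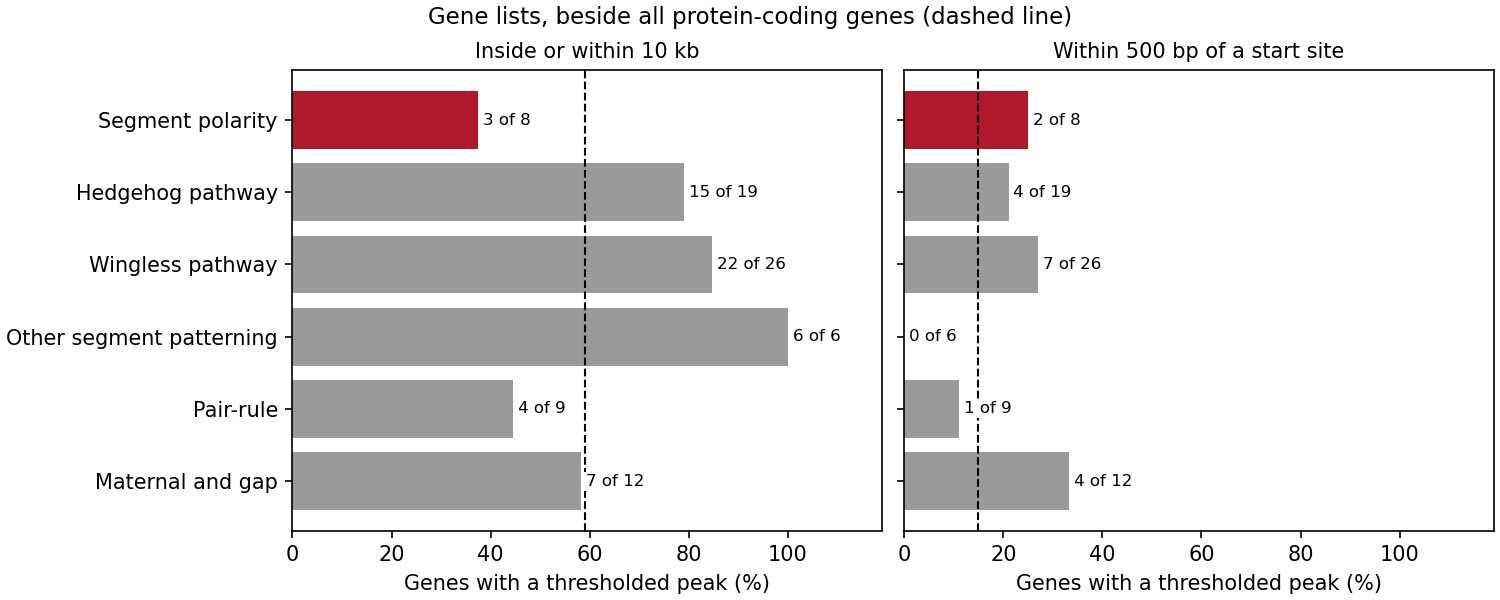
Share of genes with a thresholded peak within 10 kb (left panel) and at a promoter (right panel), in percent, for the segment polarity genes and 5 other lists, with the count written beside each bar. The dashed lines mark all protein-coding genes, 59.1 and 14.8%, and the segment polarity genes stand at 37.5 and 25%.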

How the data were processed

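ChIP-seq region lists of CG6813-GFP were used as deposited, on dm6, with positions written 1-based. The authors deposited a signal value for each region, but the normalization, aligner, peak caller and cutoff behind it were not given in the sources used here. According to the listing deposited with each sample, the thresholded regions were the optimal set of an irreproducible discovery rate (IDR) analysis. Its input was the pooled and replicate lists, which include background, and a control entered the calling. Lists on dm3 were not used, since no annotation of that build was at hand. Depth is unknown, so no counting interval was computed. Biological replicate 1 was not analysed here.

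Gene models came from Ensembl release 115 (BDGP6.54), and transposable elements were left out. All gene symbols matched, h as hry and nos as nanos. Python 3.11.15, numpy 2.4.6, pandas 2.3.3 and matplotlib 3.10.9 counted summits in windows of 10 kb, 500 bp from a TSS for promoters and 200 bp between lists. The counting was tested on simulated data. No statistical test was made, since there is 1 group of 2 samples and the genes and lists were chosen with earlier results of these data known. All 8 genes and every thresholded peak were named, or else the strongest pooled region and the nearest thresholded summit. Of other lists, the text named up to 4 genes with the highest promoter signal, then the highest within 10 kb. Other genes of these lists, including those with no peak and the neighbours of wg, were named after their values were seen. Windows of 5 and 20 kb or 0, promoters of 200 and 1000 bp, matching at 100 and 500 bp, stricter and looser lists and single replicates were the alternatives.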

Additional observations from a re-analysis of the deposited data

How the results depend on the processing

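Counts moved with the window and the list. With 20 kb, 7 of 8 segment polarity genes had a thresholded summit, all but inv, against 76.1% of protein-coding genes, and with the whole pooled list 8 did, against 94.2%. The 19 peaks became 11 inside the genes only, 12 among the 2506 strongest peaks and 124 with the whole pooled list, and the genes with a promoter region became 4 with that list. From single replicates, each without the other, the genes with a peak numbered 4 of 8, against 59.3% of protein-coding genes in replicate 3 alone, where en joined, and 58.6% in replicate 2 alone, where ci joined. Peaks numbered 20 in each, and genes with a promoter peak 2 to 3. No share over all protein-coding genes is given for these promoter counts or for the 4 with the whole pooled list. These promoter counts therefore cannot be set against a background. In all, 32 of 44 alternative values stayed close to the value reported and 12 moved further. Close meant a count or density within 1.5 times, or a rank within 1 SD of the replicates. That SD came from the same 2 replicate ranks, so a wider gap between them made a rank count as close more easily. The strongest region near ci ranked 9153 in replicate 3 and 3660 in replicate 2, while the strongest pooled region, at another position, ranked 19310. Near gsb, the strongest region of replicate 3, at the TSS of gsb-n, ranked 7310. Its pooled counterpart ranked 26982, and the strongest pooled region, in gol, ranked 18995. No paired analysis was possible because there is 1 group. The lists hold no read counts, so a gene without a listed region is not shown to be unbound.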

Other observations

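The letters CCCAGTG, or their complement, stood in 3 of the 8 nkd windows, those with summits at 19025022 (2 matches), 19027376 and 19042732, and in 0 of 3 hh and 0 of 8 ptc windows. All thresholded windows held the string in 3.01% of cases and pooled regions below the threshold in 2.49%. The string was picked after the nkd sequences were read, so this is a description with no test.

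Past the 3′ end of nkd, replicate 3 listed regions among its 5012 strongest at 18994702 (signal 61.0), 18996681 (68.6), 18997217 (rank 1510) and 19000704 (59.3). Of these 1, the third, matched a thresholded peak, at 18997263. Those at 18994702 and 18996681 lay in introns of CG18135 and had weaker pooled regions within 200 bp. The summit at 19000704 lay 96 bp upstream of the TSS of CG3808, and the nearest pooled summit was 1842 bp away.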
